A study of Mus musculus with 8 samples.

Results

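Immunity-related GTPases (IRGs) are interferon-inducible proteins that bind GTP and defend mouse cells against pathogens living in vacuoles. The 6 genes described here, Irgm1, Irgm2, Igtp, Iigp1, Ifi47 and Gm4841, were chosen by symbol from a table of 7500 genes, and all 6 had a line in it. Ribosome footprints, the mRNA fragments that translating ribosomes shield from nuclease, were sequenced from livers of male wild-type FVB/N mice. From weaning the mice were maintained for 6 weeks on a selenium-deficient diet with 0 ppm selenium added (0 Se, 2 mice) or with 0.1 ppm selenium as sodium selenite (0.1 Se, 2 mice), and each mouse gave 2 libraries. The table joins the mice of a diet, so each value below is 1 sum per diet and single mice were not analysed here.

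The IRG family is commonly divided by function. Effector members load onto the membrane of a vacuole that holds a pathogen such as Toxoplasma gondii and break it, while regulatory members stay on the membranes of the cell's own organelles and keep the effectors in their inactive, GDP-bound form there. Interferon-gamma, acting through its receptor and the JAK kinases, is the best known inducer of the family. In mouse liver Iigp1 is also known to be made without infection, from a promoter used in that organ.

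The division can be read in the coding sequence. At the first nucleotide-binding motif of the GTPase domain the effectors carry the lysine found in most GTPases and are called GKS proteins, while the regulators carry a methionine and are called GMS proteins. The 24 bases of this motif are shown for the 4 members on chromosome 11, 5′ to 3′ on the coding strand of the mm9 genome, with the codon of that residue in capitals.
Irgm1: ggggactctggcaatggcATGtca
Irgm2: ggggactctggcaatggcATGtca
Igtp: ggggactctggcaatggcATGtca
Ifi47: gggcagtctgggactggcAAGtcc
The 3 regulatory members shared these 24 bases exactly.

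The motif lies on chromosome 11 in exon 3 of Irgm1 (chr11:48680263-48680286, minus strand), exon 2 of Irgm2 (chr11:58033197-58033220, plus strand), exon 3 of Igtp (chr11:58019777-58019800, plus strand) and exon 2 of Ifi47 (chr11:48909150-48909173, plus strand). The capital codon is number 89 in Irgm1, 77 in Irgm2, 97 in Igtp and 87 in Ifi47.

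Iigp1 (codon 82) and Gm4841 (codon 83), the members on the other chromosome, also encode lysine there.

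All 6 members had more footprints on 0.1 Se than on 0 Se, and 4 of them, Irgm1, Irgm2, Igtp and Gm4841, rose by the exact negative binomial test. A gene was called changed at a Benjamini-Hochberg adjusted p under 0.05 and a change over 1.5-fold, and over all 10398 tests 0.769% were called higher. Together the 6 sums went from 3012 footprints on 0 Se to 4481 on 0.1 Se, that is, by 1.49 times. The median log2 ratio of the 6 was 0.74, beside 0.06 over the genes of the table. The regulatory members had 1037 and 1956 footprints (ratio 1.89) and 3 of 3 were called. The effectors had 1975 and 2525 (ratio 1.28) and 1 of 3 was called. Iigp1, whose sums were estimated, gave 1734 and 2062 of the effector footprints. The effector ratio therefore follows mainly Iigp1 (1.19) and not Gm4841 (6.21). The members were picked with results of this comparison known, so these counts describe the family and are no independent test of it.

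**Figure D1:**
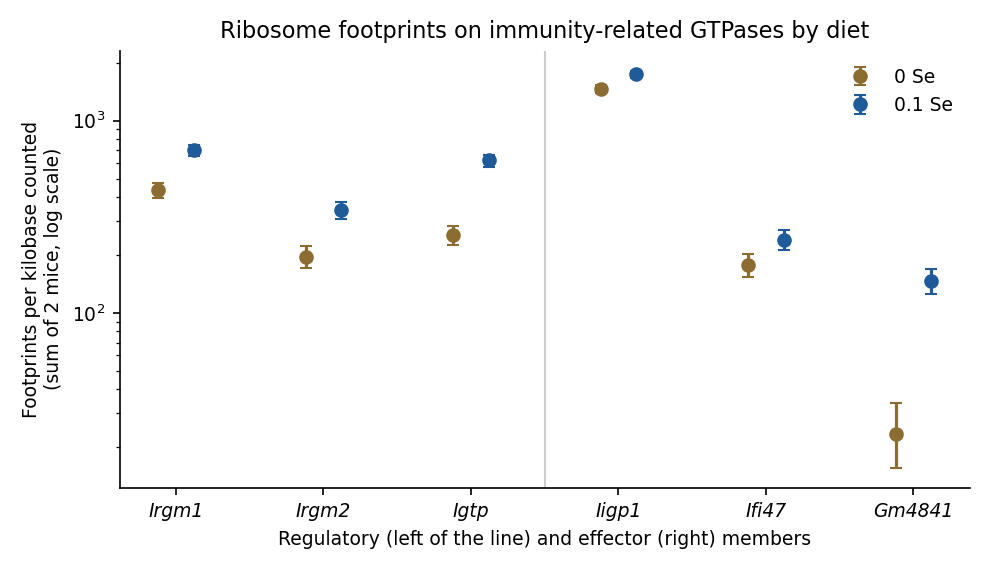
Footprints per kilobase counted (log axis, sum of 2 mice) for each member on 0 Se (brown) and 0.1 Se (blue), with 95% Poisson intervals of counting error as bars. Iigp1 is highest in both diets and Gm4841 lowest, and the diets lie farthest apart for Gm4841, at 23.5 and 146 footprints per kilobase.

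The depth behind these values was 7470222 adjusted footprints per diet, that is, footprints scaled by the authors to a common library size. Of all genes, 107 were called, 80 higher and 27 lower on 0.1 Se. The direction of the ratio was taken from the study, which reports the selenoprotein gene Sepw1 as higher on 0.1 Se. Gpx1, a selenoprotein known to fall in selenium deficiency, changed in the same direction. It had 2464 footprints on 0 Se, 6823 on 0.1 Se and a log2 ratio of 1.47. The sums of Gpx1 were estimated from its level and p-value, as for other genes of many footprints. Over the genes with a line the median log2 ratio was 0.06 and the 5th and 95th percentiles were −0.71 and 0.79. The 2898 tests without a line, all with p-values above 0.35, are not included, so the range does not describe all genes tested. With 2 mice per diet and 1 dispersion for all genes, the p-values rest on a spread averaged over genes and not on the spread of the gene itself. Expressed as a biological coefficient of variation, the SD between the units tested divided by their mean, it was 0.11 if those units were the mice. It would be 0.156 if they were the libraries, and then it would not be a spread between mice. How the 2 libraries of a mouse were joined is not given in the sources used here, and the p-values and intervals have the same size either way.

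Igtp, also named Irgm3, is a regulator of the endoplasmic reticulum and of lipid droplets that mice need to resist Toxoplasma gondii. It had 307 footprints on 0 Se and 752 on 0.1 Se. The ratio was 2.45, with an exact Clopper-Pearson interval of 2.14 to 2.81 that covers counting error only. On the log2 scale it was 1.29 with a 95% interval of 0.93 to 1.66 once the dispersion was included (adjusted p = 3.9e-09, exact negative binomial test). Igtp had the largest ratio of the regulatory members and ranked 20 among the 80 genes called higher. A pair of sums of 330 and 802 gives the same p-value, with a log2 ratio of 1.28.

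Irgm2, a regulator found mainly at the Golgi, had 221 footprints on 0 Se and 385 on 0.1 Se. This ratio of 1.74 corresponds to a log2 ratio of 0.80 (95% interval 0.41 to 1.19, adjusted p = 0.011, exact negative binomial test). Pairs of 207 with 363 and of 214 with 374 footprints give the same p-value and log2 ratios of 0.81. Irgm2 ranked 52 among the genes called higher.

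Irgm1, a regulator of Golgi, lysosomes and phagosomes that is required for resistance to mycobacteria, had 509 footprints on 0 Se and 819 on 0.1 Se. The ratio was 1.61 and the log2 ratio 0.69 (95% interval 0.34 to 1.04, adjusted p = 0.018, exact negative binomial test). It added 310 footprints, fewer than the 445 of Igtp, although it had the most footprints of the 3 regulators in both diets. Irgm1 ranked 68 among the genes called higher, the lowest place of the 4 members called.

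The effectors were less alike. Gm4841, placed among the effectors by its family and carrying the lysine motif, had 28 footprints on 0 Se and 174 on 0.1 Se. Its ratio of 6.21 (Clopper-Pearson 4.15 to 9.62) was the largest of the 6 and the third largest of all genes called higher in the table (rank 3). The log2 ratio was 2.64 (95% interval 1.98 to 3.29, adjusted p = 5.4e-15, exact negative binomial test). Gm4841 also rested on the fewest footprints of the 6, and 75.5% of its 30-base windows had a close copy in another gene, as described further on.

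Ifi47, also named Irgd, is an effector that loads onto parasite vacuoles. It had 213 footprints on 0 Se and 289 on 0.1 Se. The ratio was 1.36. Its log2 ratio of 0.44 had a 95% interval of 0.04 to 0.84, and it did not pass the test after adjustment (p = 0.034, adjusted p = 0.56, exact negative binomial test).

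Iigp1, also named Irga6 and the best studied effector, had 1734 footprints on 0 Se and 2062 on 0.1 Se. These 2 sums were estimated from the gene's mean level and p-value, since sums of this size leave too many pairs to tell apart, so its ratio and p-value hold no more than those 2 deposited values. The ratio was 1.19, the log2 ratio 0.25 with a 95% interval of −0.07 to 0.57, and the gene was not called (adjusted p = 0.82, exact negative binomial test). Its counting interval of 1.12 to 1.27 lies above 1, so counting error alone does not span the difference whereas the interval with the dispersion does. The upper end of the wider interval is a ratio of 1.49, below the point estimates of the 4 members called. Their own intervals of this kind start below it for Irgm1 (1.26) and Irgm2 (1.33). They start above it for Igtp (1.90) and Gm4841 (3.95).

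**Figure D2:**
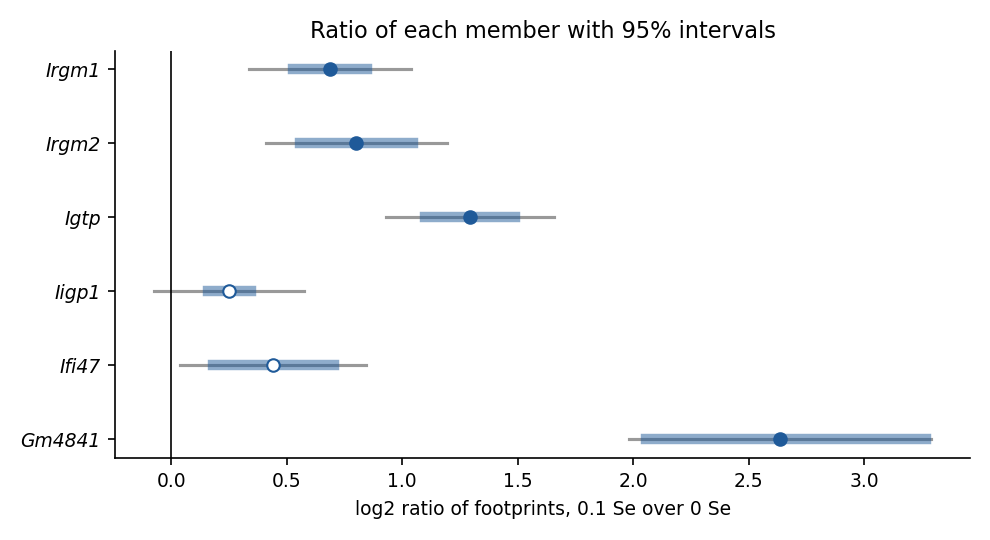
The log2 ratio of 0.1 Se over 0 Se (horizontal axis) for each member, with the 95% counting interval as a thick bar and the interval that includes the dispersion as a thin line; filled points were called. The thin lines of Iigp1 and Ifi47 start near 0, at −0.07 and 0.04, and that of Gm4841 starts at 1.98.

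The calls of the members depended on how large a spread was assumed. With a coefficient of 0.2 instead of 0.11, Igtp (adjusted p = 0.021) and Gm4841 (adjusted p = 2.1e-07) passed the exact test and Irgm1 and Irgm2 did not (both adjusted p = 1). At 0.3 Gm4841 alone of the 6 passed (adjusted p = 0.0029), and at 0.4 none did, as was so for all genes of the table, where 46 genes had an unadjusted p under 0.05. When the ratios were centred on genes of moderate level, Irgm1 did not pass (adjusted p = 0.067) and the other 3 did.

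The log2 ratios of the members were compared in all 15 pairs. The 95% interval of the difference left out 0 in 9 pairs, and in 7 pairs after the intervals were widened for 15 comparisons. Those 7 were Gm4841 with each of the other 5 members, and Igtp with Ifi47 and with Iigp1. Gm4841 exceeded Igtp by 1.34 on the log2 scale (widened interval 0.22 to 2.47). Igtp exceeded Iigp1 by 1.04 (0.31 to 1.77) and Ifi47 by 0.85 (0.04 to 1.67). The difference of Igtp from Irgm2 was 0.49 (widened interval −0.31 to 1.29) and that of Irgm2 from Irgm1 was 0.11 (−0.67 to 0.90), so the 3 regulators were not told apart from each other at this width. Irgm1 and Irgm2 were likewise not separated from Ifi47 or Iigp1. The regulatory and effector classes therefore overlapped in the size of their ratios, with an effector, Gm4841, at one end and an effector, Iigp1, at the other.

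The levels of the members were set side by side per kilobase of the coding stretch counted. On 0 Se, Iigp1 had 1467 footprints per kilobase, Irgm1 435, Igtp 253, Irgm2 196, Ifi47 177 and Gm4841 23.5. On 0.1 Se the values were 1745 for Iigp1, 700 for Irgm1, 620 for Igtp, 341 for Irgm2, 240 for Ifi47 and 146 for Gm4841. The order was the same in both diets. Between neighbours in this order, the 95% interval of the difference in log2 level, dispersion included, spanned 0 for Irgm1 and Igtp on 0.1 Se (0.17, −0.17 to 0.52), for Igtp and Irgm2 on 0 Se (0.37, −0.03 to 0.77) and for Irgm2 and Ifi47 on 0 Se (0.15, −0.27 to 0.56). The other neighbours differed beyond that interval, Iigp1 from Irgm1 by 1.75 on 0 Se and by 1.32 on 0.1 Se. These intervals leave out footprints that may be lost to stretches shared with other genes, and the levels were not corrected for them. With up to 2 mismatches, such stretches made up 75.5% of the 30-base windows in Gm4841, 42.0% in Iigp1 and 0% in Ifi47, as described further on. Iigp1 held 57.6% of the footprints of the 6 members on 0 Se and 46.0% on 0.1 Se, Igtp held 10.2% and 16.8%, and Gm4841 held 0.93% and 3.88%. By mean level over both diets, 94.6% of the genes of the table lay below Iigp1, 86.3% below Irgm1, 83.5% below Igtp, 74.9% below Irgm2, 71.0% below Ifi47 and 48.0% below Gm4841.

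**Figure D3:**
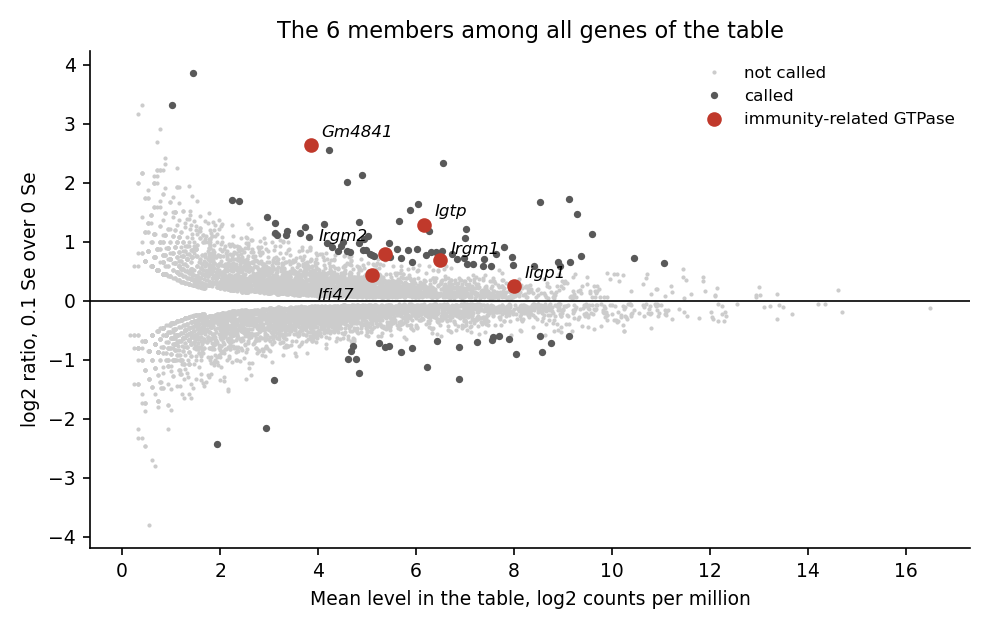
Log2 ratio of 0.1 Se over 0 Se against the mean log2 CPM for the genes of the table, with called genes in dark grey and the 6 members in red. The band without points around 0 holds genes whose p-value was too high for them to have a line, and Gm4841 (2.64) lies above nearly all genes of a similar level.

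IRG genes arose by duplication, and reads that aligned to more than 1 place were not counted, so the coding sequences were compared with each other and with all coding transcripts of the annotation. Igtp and Irgm2 were the most similar pair, at 66.8% identical bases, followed by Irgm1 and Igtp (64.6%), Iigp1 and Gm4841 (64.5%) and Irgm1 and Irgm2 (62.2%). Of the windows of 30 bases, about the size of a footprint, 17.7% of those of Irgm2 occurred exactly in Igtp and 16.4% of those of Igtp in Irgm2. Irgm1 shared 1.67% of its windows with other genes, and Ifi47 0%. Iigp1 shared 10.2% with its relative Gm4951. Gm4841 shared 30.6%, almost all with BC023105, a gene close to Iigp1 on the chromosome.

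With up to 2 mismatches allowed, as the authors' alignment did, the share rose to 42.0% in Iigp1, 26.1% in Irgm2, 24.7% in Igtp, 6.22% in Irgm1 and 75.5% in Gm4841, and stayed at 0% in Ifi47. For Gm4841 every one of these windows had its copy in BC023105, which had no line in the table. Gm4951 had 740 footprints on 0 Se and 660 on 0.1 Se, a log2 ratio of −0.17, and was not called (adjusted p = 1, exact negative binomial test). Footprints from the shared stretches could have been lost or placed on a relative, most of all for Gm4841. The part of this in the ratios and in the levels per kilobase was not tested. The libraries came from FVB/N mice while the mm9 genome is that of another strain, so the counts also depend on bases that differ between the strains.

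The members form clusters on 2 chromosomes, given here in the mm9 build. Igtp (chromosome 11, 58013058 to 58021093, plus strand) and Irgm2 (chromosome 11, 58028530 to 58036282, plus strand) are neighbours with a gap of 7.437 kb. Irgm1 (chromosome 11, 48675470 to 48685185, minus strand) and Ifi47 (chromosome 11, 48890089 to 48910476, plus strand) lie elsewhere on the same chromosome with other IRG genes between them. Iigp1 (chromosome 18, 60535683 to 60552281, plus strand) and Gm4841 (chromosome 18, 60427959 to 60432926, minus strand) lie on chromosome 18. In Irgm2, Iigp1, Ifi47 and Gm4841 1 exon holds the whole coding sequence, and in Irgm1 and Igtp exons 2 and 3 do.

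Neighbours were searched by symbol in the mm9 annotation. Among those found within 100 kb of a member that had a line, only Igtp and Irgm2 themselves were called. The IRG gene Gm12250 was missed by that search. By its promoter in the GRCm38.p6 build (GAS match at chr11:58183774-58183798) it also lies within 100 kb of Igtp and Irgm2. It was called higher, as described further on. Trim7, a ubiquitin ligase gene 9.759 kb from Irgm1, had 35 footprints on 0 Se and 69 on 0.1 Se (log2 ratio 0.98, adjusted p = 0.20, exact negative binomial test). Mrpl22, a mitochondrial ribosomal protein gene 19.991 kb from Igtp, had 256 and 238, and Gnb2l1, which encodes a scaffold protein of the ribosome, had 1064 and 1024 beside Irgm1. F830016B08Rik, an IRG gene 20.108 kb from Gm4841, had 46 and 53. The olfactory receptor gene Olfr56 overlaps Ifi47 in the annotation and had no line.

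Interferon-induced genes commonly carry either of 2 short motifs before their start, GAS, which dimers of STAT factors bind, and ISRE, which IRF factors bind. RefSeq promoters of the GRCm38.p6 build, from 250 bases before to 50 after the gene's start, were searched on both strands for the GAS letters TTCNNNGAA and for the ISRE core, GAAA followed by any 2 bases and GAAA. Of 32851 promoters, 8.30% held the first and 3.44% the second. Irgm1, Irgm2, Igtp and Ifi47 had an entry. The matches are shown 5′ to 3′ on the gene's strand with 8 bases on each side and the match in capitals. The neighbours Igtp and Irgm2, also the most similar pair of members in coding sequence, hold almost the same letters.
Igtp, GAS: ctagccatTTCTAGGAActgaaact
Irgm2, GAS: ctagccatTTCCAGGAActgaaact
Igtp, ISRE: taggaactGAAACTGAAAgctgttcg
Irgm2, ISRE: caggaactGAAACTGAAAgctgttcg
Irgm1, ISRE: tgtttcaaGAAATAGAAAccgaaact
In Igtp the GAS match began 45 bases and the ISRE match 34 bases before the start (chr11:58199503-58199527 and chr11:58199514-58199539, plus strand, flanks included). In Irgm2 they began 75 and 64 bases before it (chr11:58214894-58214918 and chr11:58214905-58214930, plus strand). The GAS and ISRE matches of each gene stood 2 bases apart and did not overlap. Irgm1 had no GAS match and its first ISRE match began 30 bases before the start (chr11:48871433-48871458, minus strand), with another overlapping it at 24 bases. Ifi47 held neither set of letters in this window. A match is a run of letters and was not tested for binding or for a part in the diet ratios.

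Other IRG genes were taken from a list of 10 symbols, of which Irgm3 is another name of Igtp, and 2 had a line. Gm12250, also named Irgb10, a member that attacks vacuoles and bacterial membranes, had 55 footprints on 0 Se and 122 on 0.1 Se and rose (log2 ratio 1.15, 95% interval 0.59 to 1.70, adjusted p = 0.0084, exact negative binomial test). Its promoter held a GAS match 61 bases before the start and ISRE matches at 91 and 46 bases. With a coefficient of variation of 0.2 it did not pass. F830016B08Rik had a log2 ratio of 0.20 and was not called. Tgtp1 and Tgtp2, a pair of near-identical IRG genes, had no line, and neither did Irgc1, Irgq, Gm5431, 9930111J21Rik1 and 9930111J21Rik2.

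Of 20 genes of interferon-gamma signalling, 16 had a line, 14 had more footprints on 0.1 Se and none was called lower, with a median log2 ratio of 0.39. Irf1, a transcription factor induced by interferon-gamma, had 235 footprints on 0 Se and 401 on 0.1 Se and rose by 0.77 on the log2 scale (95% interval 0.38 to 1.16, adjusted p = 0.015, exact negative binomial test). With a coefficient of variation of 0.2 it did not pass.

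Other signalling genes did not pass. The kinase Jak1 had 1231 and 1600 footprints, Stat3 had 1110 and 1629 (adjusted p = 0.080, exact negative binomial test), and Stat2 had 270 and 405. Irf9, the partner of STAT2, had 147 and 223, and Irf2 and Irf8 had 390 and 448 and 44 and 53. The receptor chains were the 2 genes with fewer footprints on 0.1 Se. Ifngr1 had 183 on 0 Se and 143 on 0.1 Se, and Ifngr2 had 33 and 25. Ciita, the activator of MHC class II genes, had 18 and 36, and the feedback inhibitor Socs3 had 15 and 22. The phosphatases Ptpn2 (65 and 80), Ptpn6 (174 and 231) and Ptpn11 (257 and 298) and the STAT inhibitor Pias1 (117 and 139) had log2 ratios from 0.21 to 0.41. Ifng itself had no line, nor had Jak2, Nlrc5 and Socs1.

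The IRG system depends on the enzymes that attach LC3 and GABARAP proteins to membranes, which direct IRG proteins and guanylate-binding proteins to the vacuole. Of 15 genes of this machinery 11 had a line and none was called in either direction (exact negative binomial test; 818 genes of all had an unadjusted p under 0.05). The median log2 ratio was −0.09, with a range from −0.40 in Gabarapl1 to 0.32 in Becn1. Atg5 had 268 footprints on 0 Se and 251 on 0.1 Se, and Atg7 had 474 and 415. The guanylate-binding proteins, the other large family of interferon-inducible GTPases, had a line for 10 of 11 genes, and 6 were called higher and none lower, with a median log2 ratio of 1.19. With a coefficient of variation of 0.2 the count was 2 of 10. Gbp10 had 69 and 279 footprints (log2 ratio 2.02), and Gbp2 and Gbp8, at 1.31 and 1.25, were the GTPases of that family nearest to Igtp in ratio.

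**Figure D4:**
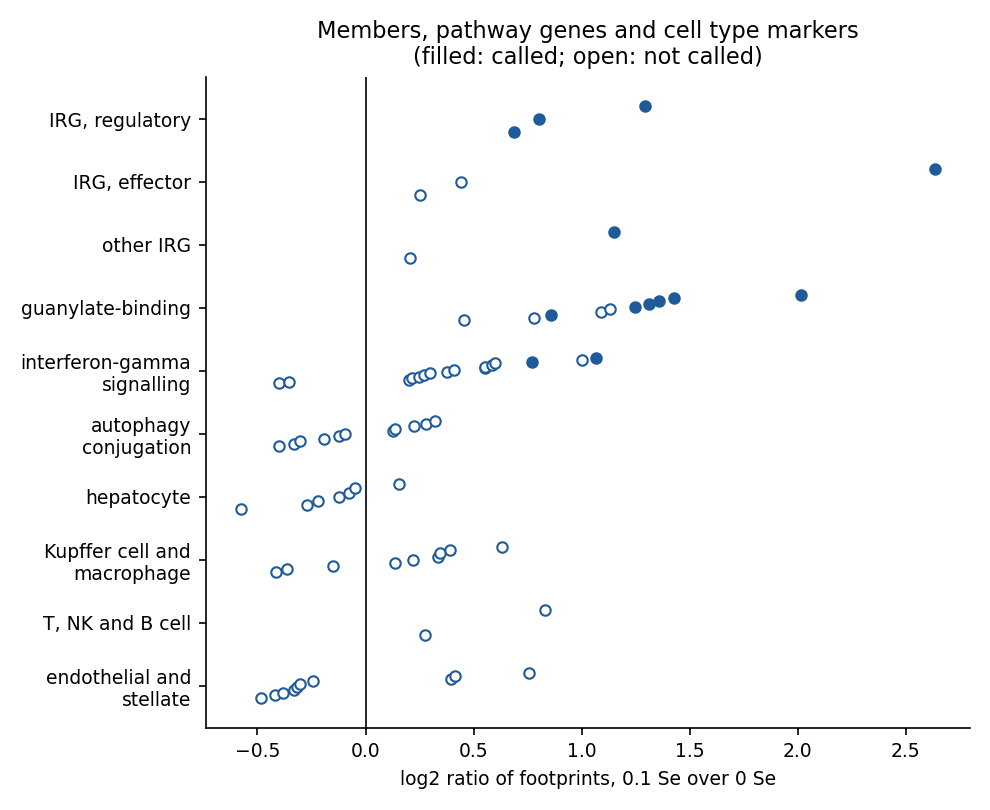
Log2 ratio of 0.1 Se over 0 Se for each gene with a line in the member classes, the pathway lists and the lists of cell type markers; filled points were called. All 10 guanylate-binding proteins and all 6 members lie to the right of 0, while the hepatocyte and autophagy genes lie on both sides of it.

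In whole liver, more cells of a type and more footprints per cell cannot be told apart, and neither can more mRNA and more ribosomes per mRNA in footprints alone. The tissue label was checked on 8 hepatocyte markers, 7 of which had a line, with 1063856 footprints on 0 Se and 982676 on 0.1 Se. None was called and the median log2 ratio was −0.12. Of 11 Kupffer cell and macrophage symbols 9 had a line, with 3609 and 4383 footprints and a median log2 ratio of 0.22; 6 had more footprints on 0.1 Se and 3 fewer, and none was called. Their defining markers were present: Clec4f, a lectin of Kupffer cells, had 1794 and 2262 footprints, and Emr1, which encodes F4/80, had 115 and 151. The 3 with fewer footprints on 0.1 Se were Timd4 (56 and 42), Cd163 (76 and 59) and Lyz2 (153 and 138). Of 10 markers of T, NK and B cells 2 had a line, Ptprc (76 and 92) and Cd4 (9 and 16), and Cd3e, Cd8a, Nkg7 and Gzma had none. The 10 endothelial and stellate cell markers had 4812 and 3860 footprints and a median of −0.31. The median log2 ratio of the Kupffer cell and macrophage list, 0.22, lay below those of the 4 members called and close to the 0.25 of Iigp1. The part of cell numbers in the ratios of the members was not tested.

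For each member called, the 3 called genes of nearest log2 ratio were listed, a likeness of size over 2 diet sums only. For Irgm1 these were Steap4, Cd74 and Sep15, at 0.66 to 0.67 on the log2 scale. Steap4 encodes a metalloreductase and Sep15 a selenoprotein of the endoplasmic reticulum. Cd74, the invariant chain of MHC class II, had 2759 and 4378 footprints. For Irgm2 they were Ampd2, H2-Aa and Mpeg1, at 0.79, where Ampd2 encodes an AMP deaminase, H2-Aa an MHC class II chain and Mpeg1 a pore-forming protein of macrophages. For Igtp they were Gbp2, Lcn2 and Gbp8, at 1.25 to 1.32, Lcn2 being an iron-binding acute-phase protein. For Gm4841 they were Zbtb16 (2.57), Saa1 (2.33) and Saa2 (2.13), a transcription factor and 2 acute-phase proteins.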

How the data were processed

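Ribosome profiling libraries of 4 mouse livers were analysed from 1 table. Per the study's methods, unique alignments by Bowtie to RefSeq mRNAs (mm9) were counted without the first 15 and last 3 codons, and genes over 1 CPM in at least 3 samples were compared with edgeR. The deposited log2 CPM is the authors' mean over all libraries. The deposited log2 fold change, p-value and adjusted p-value per gene are the authors' own comparison. No value was copied from those columns into the text. They were used to recover the diet sums, the dispersion and the number of tests, the fold change only for direction, for the scale of the level and to drop pairs far from it. The linear fold change was not used.

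Sums came from pairs whose exact negative binomial p-value equals the deposited one (Python 3.11, SciPy): 6690 genes (89.2%) had 1 pair, 28 several, and for 782 the split of the total given by the level whose p-value came nearest was taken. The dispersion was 0.0121 if each diet entered as 2 mice; how libraries of a mouse were joined is not given in the sources used here, and the offset of the log2 CPM values, 7.83 counts in all, is near 2 for each of 4 units. The 2-sided exact test was then run on the sums and adjusted by Benjamini-Hochberg over 10398 tests, of which 2898 had no line; every test with a p-value up to 0.35 had one. The recomputed p-value differed from the deposited one by under 1% in 99.3% of genes. Because the sums were recovered from the authors' results, the ratios and p-values given here come close to the authors' own and are no independent check of them. Intervals are 95%. The procedure was tested on simulated data drawn with the recovered dispersion for all genes. Such data cannot show how the procedure does where genes differ in spread. The length in the table was 60 bases shorter than the annotated coding sequence in 84.2% of 7260 genes matched by symbol, including all members. The depth of single libraries is unknown. The members and lists were chosen with earlier results of these data known. Genes named are the 6 members, the genes of the lists and the members' neighbours within 100 kb. For each member called, the 3 called genes nearest in ratio are named too. Sepw1 is named for the direction of the ratio, and Gpx1 and Gm4951 were added after their values were seen. The design called for counts per library if given and otherwise for this test. Single values of 1 gene of the interferon-gamma signalling list are not reported here.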

Additional observations from a re-analysis of the deposited data

How the results depend on the processing

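The assumed spread decides most calls: it is an average over genes, and values per mouse were not used here, so no mouse could be left out in turn. No paired analysis was possible because no mouse number occurs in both diets. All 6 members kept a ratio above 1 under both centrings, with footprints added and with the other pairs of sums; the remaining alternatives cannot change a ratio. Under the exact negative binomial test, the 107 genes and 4 members called became 296 genes and 4 members with counting error alone, 18 genes and 2 members at a biological coefficient of variation of 0.2, 4 genes and 1 member at 0.3, and 0 genes and 0 members at 0.4 (46 genes with an unadjusted p under 0.05). A threshold of 2-fold gave 39 genes and 2 members, and Bonferroni adjustment 34 genes and 2 members. In both cases the 2 were Igtp and Gm4841. No fold threshold and a limit of log2 CPM 3 left 4 members called. Setting the median ratio of abundant genes (log2 CPM 8 or more) to 1 gave 153 genes, 88.2% of them higher, against 74.8% without it, and 4 members. Doing so for log2 CPM 4 to 6 gave 106 genes, 51.9% higher, and 3 members, without Irgm1. Adding 2 footprints to each sum moved the log2 ratio of Gm4841 to 2.55. Windows of 26 or 34 bases put the share found in another gene at 35.6% or 26.4% for Gm4841 and at 13.1% or 8.36% for Iigp1. The length of the table already leaves out the 15 and 3 codons. The whole coding sequence, chosen after seeing the data like the mismatch search and the other pairs of sums, gave Iigp1 1396 and 1660 footprints per kilobase. The causes of these changes were not tested further.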
